A study of Mus musculus with 4 samples.

Results

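Messenger RNA of 8 genes of the caspase and death receptor pathway was examined in mouse keratinocytes: Apaf1, Casp9, Casp2, Casp8, Casp8ap2, Fas, Xiap and Casp14. They were chosen by name, as all probe sets annotated to 1 of these symbols, which gave 18 of 45101 probe sets, for 8 of the 18193 genes named on the array. For all 8 the mean over the arrays reached 24.9 units, the floor to which lower signals were raised.

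The cells were primary keratinocytes, the epithelial cells of the epidermis, grown from newborn mice of the C57BL/6 strain, either wild type (WT) or labelled p38a-KO, a knockout of the stress-activated kinase p38alpha, encoded by Mapk14. Each genotype was measured without irradiation and 4 h after ultraviolet B (UVB) light at 75 mJ/cm2, on 1 Affymetrix expression array per group, 4 arrays in all. No difference between 2 arrays therefore has a replicate check or a test. The labels name neither an unirradiated control kept for 4 h, nor the deleted part of Mapk14, the promoter driving the deletion, or whether animals were pooled. Time in culture and UVB cannot be told apart here.

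Apoptosis is carried out by caspases, proteases that are made as inactive precursors and start each other in a cascade. In the intrinsic pathway, cytochrome c leaves the mitochondria and binds Apaf1, and the resulting apoptosome activates Casp9. In the extrinsic pathway, death receptors such as Fas recruit and activate Casp8. Xiap, an inhibitor of apoptosis protein, binds and blocks active caspases. In the epidermis, UVB drives damaged keratinocytes into apoptosis, whereas Casp14 belongs to cornification, the programmed terminal differentiation that builds the barrier, where it processes filaggrin.

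The array-wide setting bears on every value below. Most genes were dimmer on the irradiated arrays. Over the 11379 genes whose mean reached the floor, the median log2 difference was -0.70 for the WT pair and -0.82 for the KO-labelled pair. Quantile normalization moved it to 0.05 and 0.06. Median centring divided each array by the median of only its probe sets whose mean reached the floor. It moved the median over genes to 0.33 and 0.28, past 0, so directions after centring depend on that choice. The members are therefore also given relative to the median of all genes. The brightest Mapk14 probe set read 985.4 units (WT) and 1449 units (KO-labelled) before UVB, and 292.5 and 646.8 units 4 h later, so it was not lower under the KO label. The deleted part is not given, and a probe set outside the deleted part cannot check the genotype. Genotype directions below rest on the labels. Of the keratinocyte markers on the array, 9 of 9 were at or above the floor on every array, and their summed signal ranged from 39425 to 46898 units. The sum rests mainly on the bright Krt5, Krt14 and Perp, which differed by 1.09-fold or less after UVB. Trp63 read 1676 units (WT) and 1931 units (KO-labelled) before UVB, and 150.5 and 235.5 units 4 h later. Itga6 was 2.59-fold (WT) and 2.05-fold (KO-labelled) lower. Krt15 and Krt10 were lower after UVB in WT and higher with the KO label. Among irradiated arrays, Krt10 and Krt1 were 2.59-fold and 2.44-fold higher with the KO label than in WT. The 8 fibroblast markers summed to 2953 units in unirradiated WT against 5846 in unirradiated KO-labelled cells, and the 8 melanocyte markers to 6179 against 8694. The fibroblast markers Pdgfra (109.1 against 97.2 units) and Dcn (93.6 against 94.0 units) did not share that difference, while the other fibroblast markers were higher with the KO label. At most 2 of 8 leukocyte and 1 of 5 endothelial markers reached the floor on any array, and Cd207, Cd3e and Pecam1 were below it on all 4. The part of these other cells in the genotype differences was not tested. In such bulk samples, fewer cells of a type and less RNA per cell cannot be told apart.

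All 8 genes had lower signal after UVB in both genotypes as deposited, as most genes did. The upper quartile of all genes was itself below 0 on the log2 scale, at -0.30 in WT and -0.42 in KO-labelled cells. Apaf1 and Casp8ap2 lost most of their signal, Casp2, Casp9 and Xiap were lower by an intermediate amount, and Casp14 kept 89.9% of its unirradiated signal in WT and 75.4% in KO-labelled cells. At least 2-fold lower were 5 of 8 genes in WT, beside 34.8% of all genes, and 7 of 8 in KO-labelled cells, beside 39.3% of all genes. None of the 8 was 2-fold higher in either genotype, beside 0.58% and 0.167%. Relative to the median of all genes on the log2 scale, the WT and KO-labelled differences were -2.73 and -2.09 for Apaf1, -2.78 and -2.83 for Casp8ap2, -1.09 and -0.22 for Casp2, -0.95 and -0.63 for Casp9, and -0.97 and -0.42 for Xiap. Casp8, Fas and Casp14 lay nearer to that median or above it in WT and are described below. The median of the 8 was -1.66 on the log2 scale in WT and -1.34 in KO-labelled cells. An additive limma model of irradiation and genotype was fitted over all 4 arrays. In it, 7 of 8 fell with irradiation, beside 69.4% of all genes, and 0 rose, beside 0.703%. At an unadjusted p under 0.05 the same counts were 7 and 0, and the share of all genes at that threshold was not counted. That model has 1 residual degree of freedom, the disagreement between the 2 genotypes' responses, moderated with a prior of 8.13 degrees from all genes. Its p-values do not measure a spread between cultures.

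**Figure D1:**
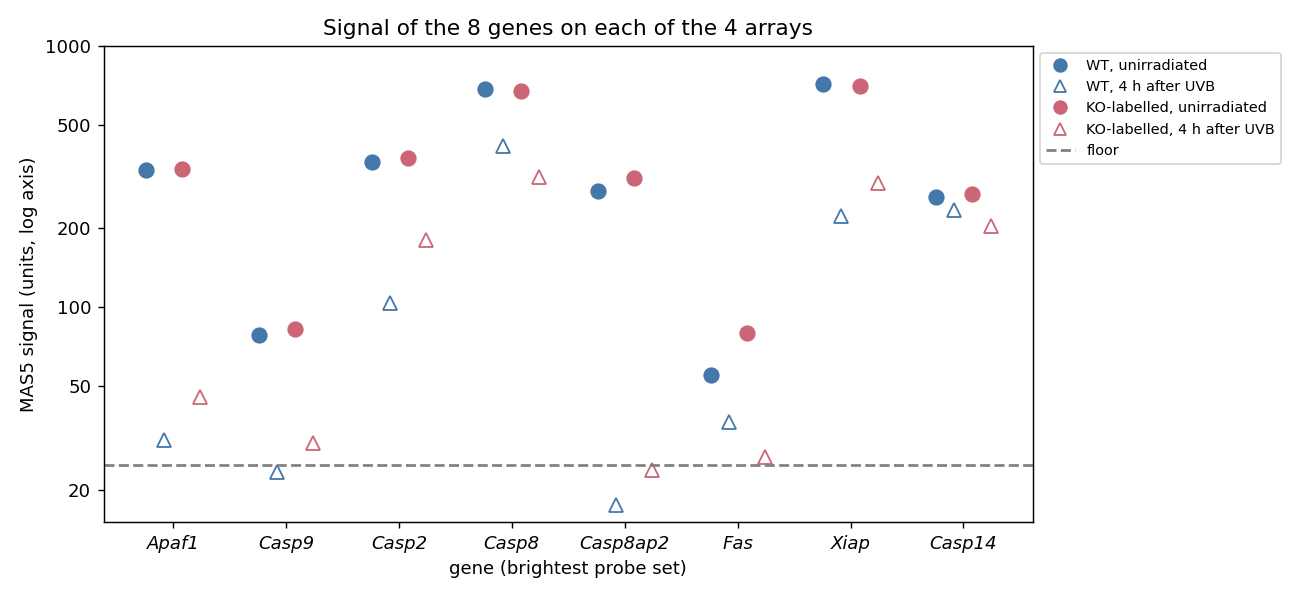
MAS5 signal of the brightest probe set of each of the 8 genes on a log axis, with 1 point for each array; filled circles are unirradiated, open triangles 4 h after UVB, and the dashed line is the floor of 24.9 units. Unirradiated points of the 2 genotypes lie close together for every gene except Fas, and the triangles of Apaf1 and Casp8ap2 are near or below the floor; levels cannot be compared between genes.

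The sequences before the start sites of the genes with the largest and the smallest UVB difference as deposited are shown here. They were chosen because these genes behaved most differently in that setting. Under the other scalings the difference of Casp14 was not the smallest. RefSeq promoter windows of the mouse GRCm38.p6 assembly were found for all 8 genes, 10 windows in all, since Xiap has 3 listed starts. Each window below is the 250 bases before the start, written from 5′ to 3′ on the gene's strand, with matches to an E2F motif, a GC box or a CCAAT box on either strand in capitals.
Apaf1 (chr10:91082744-91082993, minus strand): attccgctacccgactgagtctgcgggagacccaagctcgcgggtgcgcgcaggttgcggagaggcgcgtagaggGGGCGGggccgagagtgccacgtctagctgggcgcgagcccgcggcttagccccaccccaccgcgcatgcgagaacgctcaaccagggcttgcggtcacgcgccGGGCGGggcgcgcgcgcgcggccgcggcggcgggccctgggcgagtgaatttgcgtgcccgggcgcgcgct
Casp8ap2 (chr4:32615220-32615469, plus strand): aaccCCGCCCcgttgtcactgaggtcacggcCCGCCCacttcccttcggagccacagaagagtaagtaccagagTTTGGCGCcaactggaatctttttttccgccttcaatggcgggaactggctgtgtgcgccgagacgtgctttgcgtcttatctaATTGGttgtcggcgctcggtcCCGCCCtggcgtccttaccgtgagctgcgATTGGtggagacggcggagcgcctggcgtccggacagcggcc
Casp14 (chr10:78718294-78718543, minus strand): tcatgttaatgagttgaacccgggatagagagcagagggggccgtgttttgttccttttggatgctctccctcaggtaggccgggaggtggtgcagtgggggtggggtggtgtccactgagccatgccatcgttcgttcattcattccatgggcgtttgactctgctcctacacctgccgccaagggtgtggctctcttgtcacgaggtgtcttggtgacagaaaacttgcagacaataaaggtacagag

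The Apaf1 window held 42 CpG dinucleotides and was 75.6% G and C, the Casp8ap2 window held 25 and was 62% G and C, and the Casp14 window held 8 and was 54.4% G and C. Over all 32851 windows of the table the medians were 6 CpG and 52.4%. The GC box (GGGCGG) was found 2 times in the Apaf1 window, 3 times in the Casp8ap2 window and 0 times in the Casp14 window, and in 32.7% of all windows. The Casp9 window, of a gene with an intermediate fall, held 25 CpG and 4 GC boxes and was 66% G and C. Casp8ap2 also had 2 CCAAT boxes (CCAAT), found in 33.8% of all windows, and 1 match to the E2F motif, searched as TTTGGCGC, TTTCGCGC, TTTCCCGC and TTTGCCGC and found in 1.86% of all windows. Casp2 was the other member with an E2F match, 97 bases before its start, and also had 2 CCAAT boxes. No member window matched the p53 decamer consensus, which 7.13% of all windows hold. A TATA box (TATAAA, 12.4% of all windows) was found in 1 of the 3 Xiap windows, 249 bases before that start. Fas alone held an AP-1 motif (TGANTCA, 6.75% of all windows). The letters of an E2F and a GC box can overlap. These motifs were chosen after the windows were read, and a match is a description of the letters.

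Apaf1, the scaffold of the apoptosome, had one of the largest losses of signal on the array. Its brightest probe set read 335.9 units (WT) and 337.9 units (KO-labelled) before UVB, and 31.0 and 45.1 units 4 h later. The unirradiated arrays were nearly equal, and both irradiated arrays were far below them. After UVB, Apaf1 was down 10.8-fold in WT and 7.50-fold with the KO label, and 0.211% and 1.01% of all genes had a lower log2 difference. It fell by 3.17 on the log2 scale over both genotypes (SE 0.21, limma adjusted p = 4.54e-06). A second Apaf1 probe set read 155.7 and 141.3 units without irradiation and was below the floor after UVB, down at least 6.25-fold in WT and at least 5.68-fold with the KO label. Relative to the array, Apaf1 remained far lower: it fell by 2.18 after quantile normalization (limma adjusted p = 0.000132) and by 2.07 after median centring (limma adjusted p = 2.11e-05).

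Casp9, the initiator caspase that Apaf1 activates, was dimmer. Its brightest probe set read 78.1 units (WT) and 82.3 units (KO-labelled) before UVB, and 23.4 and 30.2 units 4 h later, so that both irradiated arrays were near the floor. Its signal was down at least 3.14-fold in WT and 2.73-fold with the KO label, and it fell by a fitted 1.55 (log2, SE 0.25, limma adjusted p = 0.000493), with 1 of the 4 values at the floor. After quantile normalization the effect was -0.67 (limma adjusted p = 0.0903) and after median centring -0.49 (limma adjusted p = 0.157), so the call depends on the scaling. The other two Casp9 probe sets showed less loss in WT or none. One read 35.5 units (WT) and 58.6 units (KO-labelled) before UVB, and 27.4 and 22.8 units after it, down 1.29-fold in WT and at least 2.35-fold with the KO label. The dimmest was below the floor on 3 arrays and read 42.8 units in irradiated WT cells alone, at least 1.72-fold higher than without irradiation.

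Casp2, an initiator caspase activated on a platform with Pidd1 and Cradd, has 1 probe set. It read 359.5 units (WT) and 373.8 units (KO-labelled) before UVB, and 104.0 and 181.4 units 4 h later. Both irradiated arrays lay below both unirradiated ones, and the irradiated KO-labelled array kept 48.5% of its signal against 28.9% in WT. Casp2 signal was down 3.46-fold in WT and 2.06-fold with the KO label, and fell by 1.42 (log2, SE 0.20, limma adjusted p = 0.000187). The effect was -0.40 after quantile normalization (limma adjusted p = 0.125) and -0.32 after median centring (limma adjusted p = 0.197).

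Casp8, the initiator caspase of the death receptors, stayed close to the array-wide shift. Its 1 probe set read 684.6 units (WT) and 672.8 units (KO-labelled) before UVB, and 414.2 and 313.8 units 4 h later. It was 1.65-fold lower in WT, -0.02 relative to the median of all genes on the log2 scale, and down 2.14-fold with the KO label, -0.28 relative to that median. It fell by 0.91 over both genotypes as deposited (SE 0.14, limma adjusted p = 0.00032), whereas the effect was -0.11 after quantile normalization (limma adjusted p = 0.479) and 0.19 after median centring (limma adjusted p = 0.24). Its call as deposited thus depends on the scaling.

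Casp8ap2 encodes a large protein, also called FLASH, that was described as a partner of Casp8 and acts in the nucleus in histone mRNA processing. Its 1 probe set read 278.3 units (WT) and 312.0 units (KO-labelled) before UVB, and 17.5 and 23.8 units 4 h later, with both irradiated values below the floor. Casp8ap2 signal was down at least 11.2-fold in WT and at least 12.5-fold with the KO label, and 0.149% and 0.158% of all genes had a lower log2 difference. The fitted limma effect was -3.56 (log2, SE 0.21, adjusted p = 3.28e-06) with both irradiated values at the floor, and the effects were -2.94 after quantile normalization (limma adjusted p = 3.76e-05) and -2.75 after median centring (limma adjusted p = 6.15e-06). Its loss was far larger than that of Casp8 on both pairs of arrays.

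Fas, the death receptor of the extrinsic pathway and a textbook p53 target, was not higher 4 h after UVB on either pair of arrays. Its 1 probe set read 55.2 units (WT) and 79.4 units (KO-labelled) before UVB, and 36.2 and 26.7 units 4 h later, the last just above the floor. The unirradiated KO-labelled array was the highest and the irradiated KO-labelled array the lowest of the 4. Fas was 1.52-fold lower in WT, 0.10 above the median of all genes on the log2 scale, and down 2.97-fold with the KO label, -0.75 relative to it. It fell by 1.09 as deposited (SE 0.30, limma adjusted p = 0.00925). The effect was -0.13 after quantile normalization (limma adjusted p = 0.761) and 0.011 after median centring (limma adjusted p = 0.98), and in WT alone the log2 difference was then 0.31 and 0.46.

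Xiap, the caspase inhibitor, has 7 probe sets, of which 3 had all 4 arrays at or above the floor. The brightest read 715.2 units (WT) and 704.8 units (KO-labelled) before UVB, and 223.9 and 298.5 units 4 h later, both irradiated arrays being well below both unirradiated ones. Its signal was down 3.19-fold in WT and 2.36-fold with the KO label, and fell by 1.46 (log2, SE 0.15, limma adjusted p = 3.02e-05). After quantile normalization it fell by 0.61 (limma adjusted p = 0.00784), and after median centring the effect was -0.36 (limma adjusted p = 0.0584). The next probe set read 164.0 units (WT) and 175.0 units (KO-labelled) before UVB, and 42.3 and 75.1 units after it, down 3.88-fold in WT and 2.33-fold with the KO label. A dimmer one went another way, at 33.6 units (WT) and 79.4 units (KO-labelled) before UVB and 54.6 and 55.9 units after it, 1.63-fold higher after UVB in WT but down 1.42-fold with the KO label. Of the remaining Xiap probe sets, 1 reached the floor without irradiation only and 3 were below it on every array.

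Casp14, the caspase of cornification, differed least as deposited, but not under the other 2 scalings. Its brightest probe set read 262.9 units (WT) and 271.5 units (KO-labelled) before UVB, and 236.4 and 204.7 units 4 h later, a narrow range in which the irradiated arrays were still the lower ones. Its signal was down 1.11-fold in WT and 1.33-fold with the KO label, with a log2 effect of -0.28 (SE 0.15, limma adjusted p = 0.131). Relative to the median of all genes it lay 0.55 higher in WT and 0.41 higher in KO-labelled cells. The direction turned with the scaling: Casp14 rose by 0.70 after quantile normalization (limma adjusted p = 0.00516) and by 0.82 after median centring (limma adjusted p = 0.000997). A second Casp14 probe set, of the kind marked as open to cross-hybridisation, read 34.7 units (WT) and 79.5 units (KO-labelled) before UVB, and 47.5 and 45.4 units after it, 1.37-fold higher after UVB in WT but down 1.75-fold with the KO label.

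**Figure D2:**
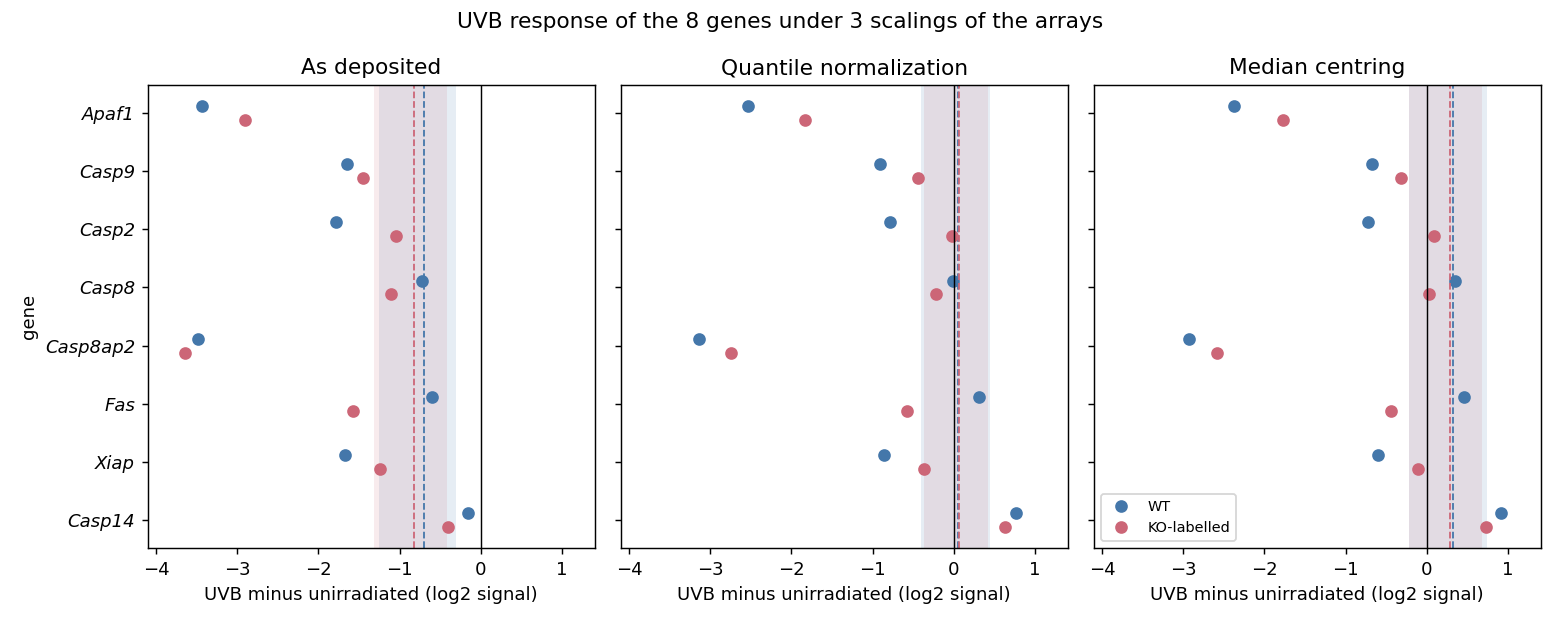
Log2 difference between irradiated and unirradiated signal of each gene in WT and KO-labelled cells, as deposited, after quantile normalization and after median centring; dashed lines and shaded bands are the median and the middle quartiles of all genes. Apaf1 and Casp8ap2 lie far left of the bands in all 3 panels, Casp14 lies to the right of every dashed line, and Casp8 stays inside the bands.

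The probe sets of 1 gene were not always alike. Of the 18 probe sets, 13 reached the floor on average and 9 did so on all 4 arrays. Where a fold could be given, 12 were lower and 3 higher after UVB in WT, and 14 were lower and 0 higher in KO-labelled cells. Most genes were also lower as deposited, and the share over all probe sets was not counted. The 3 that were higher in WT were the dimmer probe sets of Casp9, Xiap and Casp14 described above. In a limma fit on all probe sets, the dim Xiap and Casp14 probe sets had effects of 0.10 (limma adjusted p = 0.774) and -0.18 (limma adjusted p = 0.604). When log2 signals were averaged over the probe sets of a gene, 3 of 8 genes were at least 2-fold lower in WT in place of 5. The share of all genes in that setting was not counted. With quantile normalization 2 of 8 genes were at least 2-fold lower in WT and 2 of 8 in KO-labelled cells, beside 9.48% and 8.15% of all genes, and with median centring 2 and 2, beside 7.34% and 6.51%. In limma 3 members fell and 1 rose under quantile normalization, beside 20% and 20.2% of all genes, and 2 fell and 1 rose under centring, beside 14.8% and 36.4%.

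**Figure D3:**
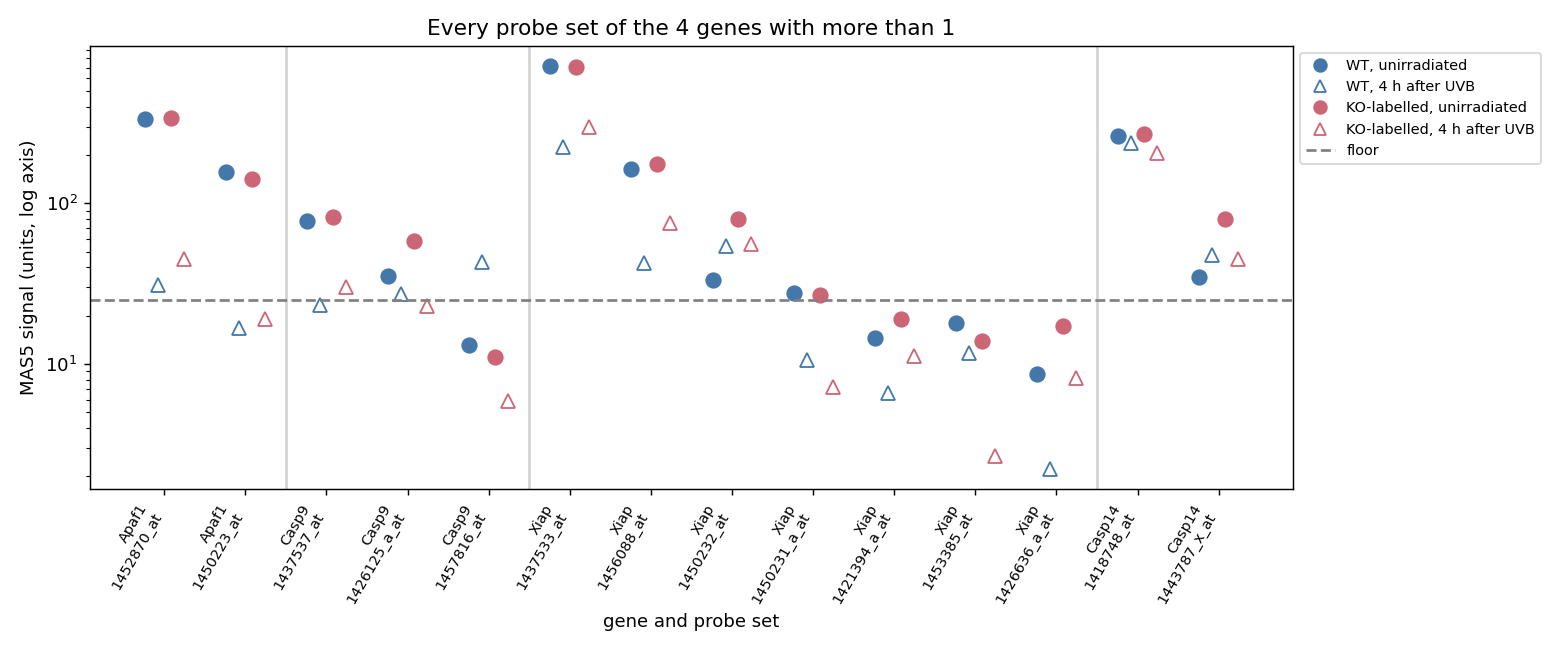
MAS5 signal on a log axis of every probe set of Apaf1, Casp9, Xiap and Casp14 on the 4 arrays, with the floor of 24.9 units as a dashed line. The bright probe sets of Xiap are lower after UVB in both genotypes, while a dim probe set each of Casp9, Xiap and Casp14 is higher in irradiated than in unirradiated WT cells.

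By the brightest probe set of each gene, the genotypes differed little before irradiation. None of the 8 genes was 2-fold higher in unirradiated KO-labelled than in WT cells, beside 1.63% of all genes, and none was 2-fold lower, beside 0.729%. Fas differed most, 1.44-fold higher in KO-labelled cells, and the other 7 lay between -0.03 and 0.16 on the log2 scale, where the median of all genes was 0.16. The signs of these small differences turned with the scaling for Apaf1, Casp9, Casp2 and Casp14. The dimmer Xiap and Casp14 probe sets described above were 2.37-fold and 2.29-fold higher in unirradiated KO-labelled than WT cells. After UVB, too, 0 of 8 were 2-fold higher, beside 1.41%, and 0 of 8 were 2-fold lower, beside 1.47%. In limma as deposited, 0 of 8 were higher and 0 lower with genotype over both conditions, beside 0.967% and 0.642% of all genes. At an unadjusted p under 0.05 there were also 0 and 0. The smallest adjusted p was that of Casp2, with an effect of 0.43 (SE 0.20, limma adjusted p = 0.3). Under the other scalings it was that of Casp8, with effects of -0.31 after quantile normalization (limma adjusted p = 0.261) and -0.34 after median centring (limma adjusted p = 0.244). At an unadjusted p under 0.05, 1 member was lower and 0 higher under each of them. The shares of all genes at these unadjusted thresholds were not counted.

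After UVB the members with a measured difference lay on both sides of 1, all within 2-fold. Casp2, Apaf1, Xiap and Casp9 were 1.74-fold, 1.46-fold, 1.33-fold and at least 1.21-fold higher in irradiated KO-labelled than in irradiated WT cells. Fas, Casp8 and Casp14 were 1.36-fold, 1.32-fold and 1.16-fold lower there, and Casp8ap2 was below the floor on both arrays. On the log2 scale the response in KO-labelled minus that in WT cells was 0.75 for Casp2, 0.53 for Apaf1, 0.44 for Xiap and 0.20 for Casp9, against -0.97 for Fas, -0.38 for Casp8 and -0.25 for Casp14. These 7 signs were the same after quantile normalization and after median centring. Centring adds the same small amount to this difference for every gene with no value at the floor. Its agreement is therefore no separate check. The sign of Casp8ap2 turned: its difference was -0.16 as deposited, with both irradiated values at the floor, and 0.40 and 0.34 under these scalings. None of the 8 differences reached 2-fold, beside 1.34% of all genes above and 2.94% below it, and with 1 array per group the difference of responses could not be tested. The Fas difference was the nearest to that threshold, at 1.95-fold. Not all probe sets of a gene shared its sign or size. For Xiap the KO-labelled minus WT response was 0.74 for the second brightest probe set and -1.21 for the dimmer one, the latter past 2-fold and opposite in sign to the brightest. For Casp9 it was -0.86 for the second probe set, with its irradiated KO-labelled value at the floor, also opposite in sign. For Casp14 it was -1.26 for the second probe set, past 2-fold and of the same sign as the brightest.

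Responses were also set against gene span, the length of the gene on the chromosome. Across 11348 genes, which are not independent replicates, span and the log2 difference after UVB had a Spearman correlation of -0.33 for the WT pair and -0.31 for the KO-labelled pair. Casp14 was the shortest member at 6.35 kb and Apaf1 the longest at 93.4 kb. Genes below 10 kb had a median of -0.40 in WT and Casp14 lay 0.25 above them, while genes from 50 to 100 kb had a median of -1.02 and Apaf1 lay at -2.42 relative to it. Casp8 at 52.3 kb and Xiap at 50.1 kb are of nearly the same span. Relative to the median of their span class they lay at 0.29 (Casp8) and -0.66 (Xiap) in WT, and at -0.017 and -0.16 in KO-labelled cells. Casp8ap2 at 37.8 kb and Fas at 37.1 kb form a similar pair, at -2.61 (Casp8ap2) and 0.27 (Fas) relative to the median of genes from 25 to 50 kb in WT, and at -2.69 and -0.61 in KO-labelled cells. The part of span in the members' responses was not tested.

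**Figure D4:**
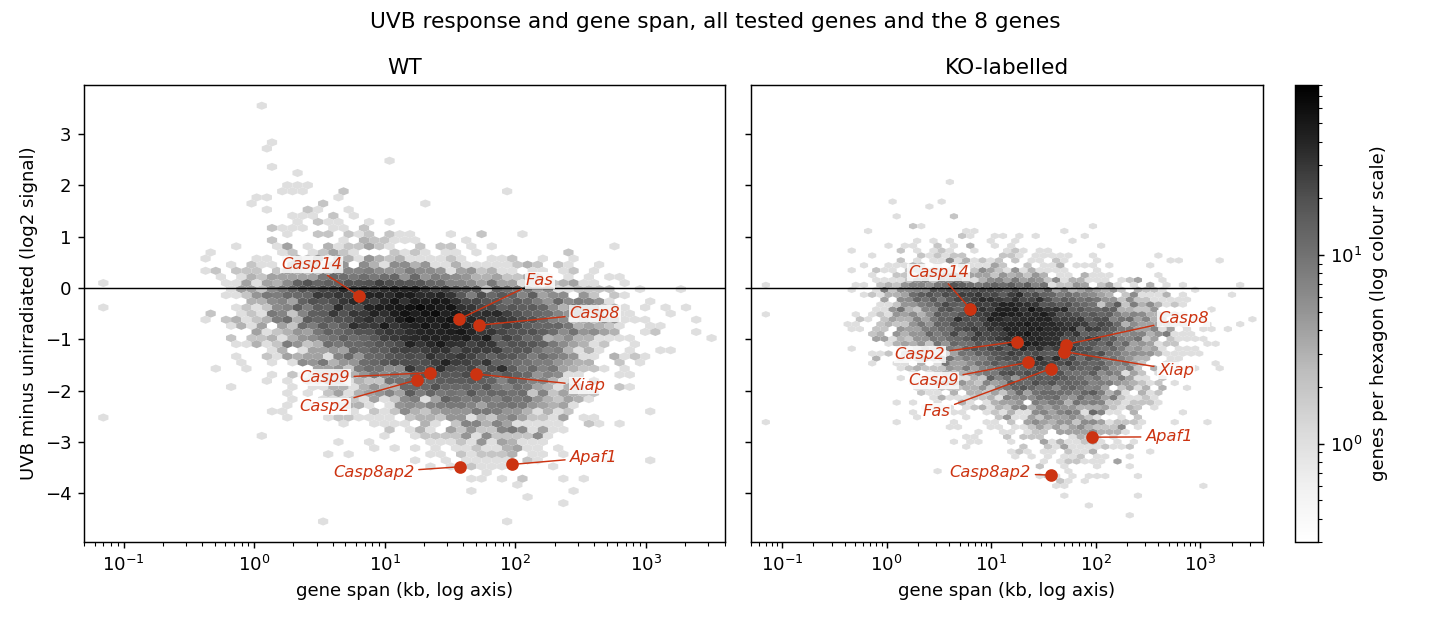
Log2 difference after UVB against gene span on a log axis for all tested genes with a known span, as hexagons shaded by number of genes, in WT and KO-labelled cells; red points are the 8 genes. Apaf1 and Casp8ap2 lie at the lower edge of the cloud, and Casp14 lies among short genes near 0.

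The genes with the most similar pattern over the 4 arrays were found by the root mean square difference of log2 signal around each gene's mean, over 9242 genes with all arrays at or above the floor. For Apaf1 these were Nuak1, at 0.077, and Stxbp3, at 0.082, against a median distance of 1.23. For Casp2 they were Zkscan17 (0.037) and Rpp25l (0.040), and for Xiap Brat1 (0.016) and Man1a (0.020). For Casp8 they were Atp1b1 (0.011) and Rad52 (0.024), for Fas Tlnrd1 and Large2 (each 0.037), and for Casp14 Gss (0.017) and Epn1 (0.021). The 4 arrays carry few distinct patterns, so this is a description of likeness only.

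Other genes of the pathway were counted in 7 lists with 57 entries, of which 52 were on the array and 43 reached the floor on average. In limma 34 of the 43 fell and 1 rose, beside 69.4% and 0.703% of all genes, and their median was -0.68 for the WT pair and -0.82 for the KO-labelled pair. After quantile normalization 6 fell and 5 rose, beside 20% and 20.2% of all genes, and after median centring 4 fell and 17 rose, beside 14.8% and 36.4%.

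Bid, which links the death receptors to the mitochondria, had the largest fall among them. It read 563.8 units (WT) and 530.1 units (KO-labelled) before UVB, and 69.6 and 78.3 units 4 h later, both irradiated arrays being far lower. It fell by 2.89 (log2, SE 0.16, limma adjusted p = 3.07e-06) and still fell by 1.87 after quantile normalization (limma adjusted p = 4.78e-05) and by 1.79 after median centring (limma adjusted p = 9.22e-06). Of the 10 apoptosis substrates and executors 8 fell, beside 69.4% of all genes. Quantile normalization left 1 that fell and 0 that rose, beside 20% and 20.2% of all genes. Median centring left 1 and 3, beside 14.8% and 36.4%. Dffb, the nuclease that cuts DNA in apoptosis, fell by 1.41 as deposited, with effects of -0.37 (limma adjusted p = 0.267) and -0.31 (limma adjusted p = 0.317) under these scalings. Gsn, an actin-severing caspase substrate, had an effect of -0.14 (limma adjusted p = 0.15).

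Among death ligands and receptors, 4 of 8 reached the floor. Tnf, the ligand, was the 1 gene that rose, with a fitted effect of 1.13 (log2, SE 0.37, limma adjusted p = 0.0219) and 1 of 4 values at the floor. It read 7.77 units (WT) and 32.4 units (KO-labelled) before UVB, and 95.9 and 40.4 units 4 h later, and was at least 3.85-fold higher in WT and 1.25-fold higher in KO-labelled cells. The receptor Tnfrsf1a fell by 1.41 and Tnfrsf21 by 1.47, of which Tnfrsf1a also fell after quantile normalization (limma adjusted p = 0.00621) and neither after median centring (0.0646 and 0.129), while Tnfrsf10b, the mouse TRAIL receptor, had an effect of -0.55 (SE 0.24, limma adjusted p = 0.0666). Fasl, the ligand of Fas, was below the floor on all 4 arrays.

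Of the 9 adaptors 7 fell, beside 69.4% of all genes. Quantile normalization left 3 that fell and 1 that rose, beside 20% and 20.2% of all genes. Median centring left 2 and 2, beside 14.8% and 36.4%. The largest effects were those of Traf2, an adaptor of TNF receptors, which fell by 1.86, and Cflar, the Casp8-like inhibitor of death receptor signalling, which fell by 1.69; both also fell after quantile normalization (limma adjusted p = 0.0209 and 0.0346) and after median centring (0.0179 and 0.0287). Ripk3, a kinase of necroptosis, had an effect of -0.27 (limma adjusted p = 0.0962). Of the 6 genes listed as the apoptosome and its regulators 4 fell, near the share of all genes, with Hspa4 by 0.91 and the protease Htra2 by 0.81. Quantile normalization left 1 that fell, Hspa4, and 1 that rose, beside 20% and 20.2% of all genes. With median centring 0 fell and 4 rose, beside 14.8% and 36.4% of all genes. The centred effects were 0.19 for Hspa4 (limma adjusted p = 0.112) and 0.29 for Htra2 (limma adjusted p = 0.199). As deposited, Cycs, which encodes cytochrome c, had an effect of 0.043 (limma adjusted p = 0.709). All 4 measured members of the IAP family fell, beside 69.4% of all genes, with Birc2 by 1.65, Birc3 by 1.02 and Birc5 by 0.51. With quantile normalization 0 of these 4 fell or rose, beside 20% and 20.2% of all genes. With median centring 1 fell and 1 rose, beside 14.8% and 36.4%.

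The Casp14 partners in cornification had a median of -0.28 for the WT pair and -0.59 for the KO-labelled pair over 9 measured genes, beside -0.70 and -0.82 over all genes. In limma 8 of 9 fell, beside 69.4% of all genes, with the envelope precursor Ivl by 1.32 and the protease Klk7 by 0.71. Tgm3, an envelope transglutaminase, had an effect of -0.02 (limma adjusted p = 0.959). After quantile normalization 0 fell and 2 rose, beside 20% and 20.2% of all genes. After median centring 0 fell and 5 rose, beside 14.8% and 36.4%. In this list 2 genes were lower with genotype in limma, beside 0.642% of all genes. They were Tgm1 (limma adjusted p = 0.00605) and Lor (limma adjusted p = 0.0137), whereas Casp14 had a genotype effect of -0.08 (SE 0.15, limma adjusted p = 0.842). Casp6 was the 1 measured gene of the other caspases, at 232.7 units (WT) and 345.1 units (KO-labelled) before UVB and 151.1 and 242.5 units 4 h later, and fell by 0.57 (SE 0.15, limma adjusted p = 0.00831). After quantile normalization its effect was 0.41 (limma adjusted p = 0.0517), and after median centring it rose by 0.53 (limma adjusted p = 0.0135). Casp1 and Casp12 were below the floor on every array.

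**Figure D5:**
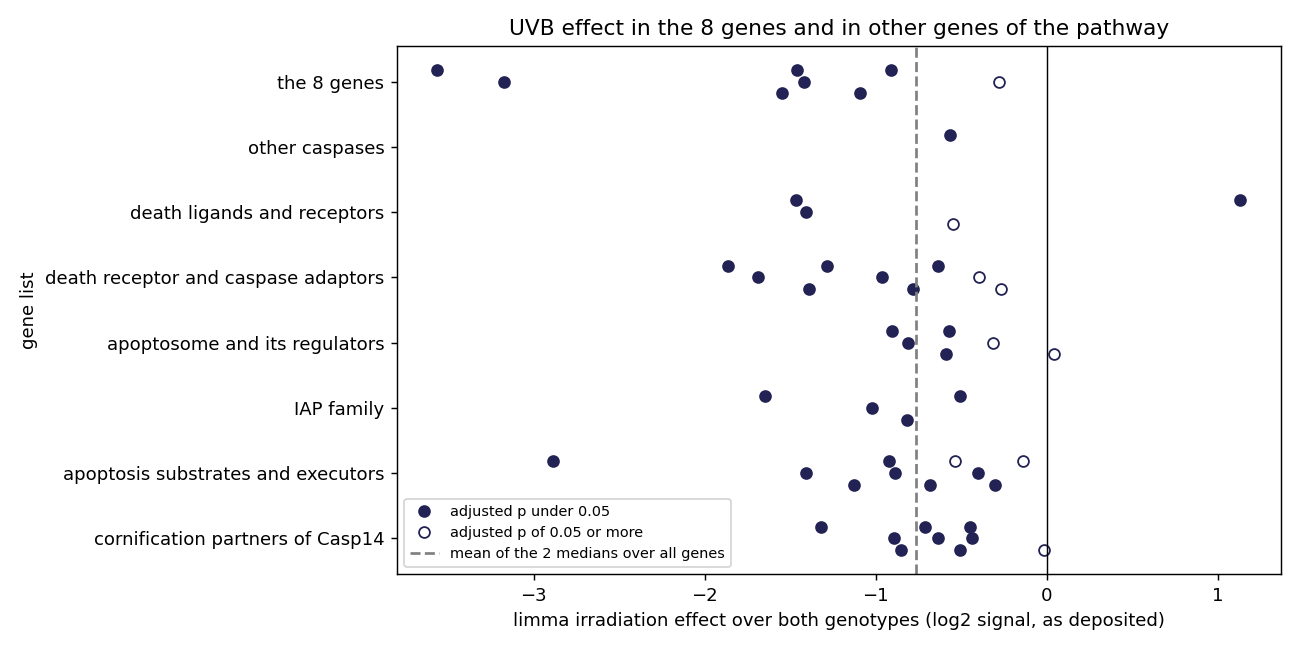
Irradiation effect over both genotypes in the limma model, on the log2 scale as deposited, for the 8 genes and for each gene of the 7 pathway lists; filled points have an adjusted p under 0.05, and the dashed line is the mean of the 2 medians over all genes. Casp8ap2, Apaf1 and Bid are the 3 leftmost points, and Tnf is the 1 filled point right of 0.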

How the data were processed

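Total RNA from 4 keratinocyte cultures was labelled with biotin from 0.2 ug and read on 1 array each, per the labels' protocols. The authors deposited 1 linear MAS5 intensity for each probe set, per the submitters' processing notes; which MAS5 version and target value they used is not stated there. Of 45101 probe sets, 34945 carry exactly 1 gene symbol in the platform annotation and were used. Groups follow the sample titles.

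Where a gene has several probe sets, the brightest on average stands for it. Signals below the median of the probe sets' means (24.9 units) were raised to it, and folds against them are bounds. Genes count as changed at 2-fold or, in limma 3.58.1 (R 4.3.3) on log2 signal of 11379 genes with an additive model and an intensity trend, at a Benjamini-Hochberg adjusted p under 0.05; limma was tested on simulated data. Promoter windows and gene spans come from RefSeq (GRCm38.p6); the files name no build.

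The members, lists, naming rule and tests were chosen with earlier results of these data known. Named pathway genes are, per list, those that rose, the 2 with the largest fall and the 1 with the smallest change among genes with all arrays at or above the floor; Fasl, Casp1, Casp12, Tgm1, Lor and the absent cell type markers were added after their values were seen. The alternatives were quantile normalization, median centring, a floor at the 25th (9.38 units) or 75th (128.9 units) percentile, 1.5-fold and 3-fold thresholds, the mean over probe sets, leaving out cross-hybridising probe sets, and limma without the trend, with only the tested factor, and on all probe sets.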

Additional observations from a re-analysis of the deposited data

Results flagged for a closer look

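A dim probe set each of Xiap and Casp14 moved in opposite directions after UVB in the 2 genotypes. On the log2 scale the Xiap probe set was 0.70 higher in WT and -0.51 in KO-labelled cells, and the Casp14 probe set was 0.45 higher in WT and -0.81 in KO-labelled cells. In both, the 2 irradiated arrays lay within 1.02-fold (Xiap) and 1.05-fold (Casp14) of each other, and the unirradiated arrays differed, with KO-labelled 2.37-fold and 2.29-fold above WT. The brighter probe sets of both genes did not show this. The 2 pathway genes Cycs and Tgm3 also had opposite signs, with smaller sizes, Cycs at 0.21 in WT and -0.12 in KO-labelled cells, and Tgm3 at 0.13 in WT and -0.16 in KO-labelled cells. Each group has 1 array, so the difference between the genotypes was not tested for any of the 4.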

How the results depend on the processing

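The scaling of the arrays decided most calls. With quantile normalization 2 members were at least 2-fold lower in WT and 2 in KO-labelled cells, in place of 5 and 7, and in limma 3 fell and 1 rose, in place of 7 and 0. With median centring 2 and 2 were at least 2-fold lower, and 2 fell and 1 rose. Apaf1 and Casp8ap2 were the 2 that fell in limma under all 3 scalings. UVB directions turned for 4 members. Casp14 had a limma effect of 0.70 with quantile normalization and 0.82 with centring, differences of 0.63 to 0.92 over both pairs of arrays, and 0.15 in WT with the mean over probe sets. Fas in WT was 0.31 and 0.46, with a limma effect of 0.011 with centring. Centring also turned Casp8 (limma 0.19, WT 0.34, KO-labelled 0.030) and Casp2 (KO-labelled 0.088). Averaging probe sets left 3 members at least 2-fold lower in WT, and a 3-fold threshold left 2 in KO-labelled cells. A 1.5-fold threshold gave 1 member higher in KO-labelled than WT cells after UVB. The shares of all genes in these settings were not counted. Casp9 and Fas could not be tested with the floor at the 75th percentile, since their mean signal is below it. The other counts of members past a fold threshold or at an adjusted p under 0.05 stayed within 1.5 times. No paired analysis was possible because the labels give no replicate numbers and each group has 1 array, which also leaves no replicate to leave out.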
